A study of Carassius auratus with 4 samples.

Results

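The clones described here carry genes of the proteasome and of the ubiquitin system on a goldfish (Carassius auratus) cDNA array. They were chosen by name: every clone whose description holds proteasome, ubiquitin, SUMO, NEDD8, TRAF7 or uch-L1 was taken, and descriptions with the word ribosomal were left out. This gave 98 clones under 58 gene names, of 8101 gene clones on the array, each printed in 2 spots. By role they were 40 clones of the proteasome, 10 of ubiquitin and SUMO themselves, 14 of hydrolases that remove ubiquitin, and 6 others. The remaining 28 were of enzymes that activate, conjugate or ligate ubiquitin or a related modifier such as SUMO. Roles were read from the names alone, and the proteasome clones include 2 of an activator and an inhibitor. The names are those of the array design, and many are borrowed from other species. No clone's place in the goldfish genome was used here.

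Ubiquitin is a small protein that cells attach to other proteins in a chain of steps: an E1 enzyme activates it, an E2 enzyme carries it, and an E3 ligase picks the target. Chains of ubiquitin send many targets to the proteasome, where the 19S regulatory particle unfolds them and the 20S core, built of alpha and beta rings, cuts them into peptides. Hydrolases take ubiquitin off again, and SUMO is a related modifier that changes where proteins go and what they bind. In endocrine cells this system clears misfolded secretory proteins and sets the lifetime of signalling proteins.

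The arrays compared dispersed cells of male and female goldfish pituitaries after 12 h with 10 nM goldfish secretoneurin, a hormone peptide released from the granin secretogranin II, with control pituitary cells that the labels describe as not incubated. So the control differs from the treated cells in the incubation as well as in the peptide, as far as the labels go. Each of 4 arrays held 1 secretoneurin and 1 control sample labelled with different dyes. The secretoneurin sample was the Cy5 one on replicates 1 and 3, and the Cy3 one on replicates 2 and 4. Whether the pairs were separate cultures is not stated in the labels, and the p-values below therefore cover no more than the spread between these samples, possibly a technical one.

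All values are log2 ratios of secretoneurin over control after background correction and loess normalization within each array, and errors are SEs over 4 arrays from a limma fit with a dye term. The offset of the background correction shrinks the ratios of dim probes. The term well above background means here a signal more than 2 background SDs over the local background. All 13 clones of pituitary hormones and granins reached that level in both groups on at least 1 array. In whole-cell RNA, fewer cells of a type and less RNA per cell cannot be told apart.

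The arrays disagreed with each other in a way that touches every result below. Over all 8090 probes tested, the ratios of replicates 2 and 4, which share a dye orientation, correlated at -0.61, whereas those of replicates 1 and 3 correlated at 0.25. Over the 98 clones these correlations were -0.73 and 0.36. Replicate 4 correlated with replicates 1 and 3 at -0.11 and -0.25 over all probes, and replicate 2 did so at -0.0057 and 0.11. Over the 98 clones the values were -0.35 and -0.34 for replicate 4, and 0.20 and 0.087 for replicate 2. The dyes stated by the labels matched those in the file headers on all 4 arrays, so the direction was kept as labelled, but for replicates 2 and 4 it is not settled by the data. The results are therefore also given without each of these arrays and with the ratio of each turned, alternatives of which the turning was chosen after seeing the data. The software's quantification day separated replicates 1 and 3 from replicates 2 and 4, as the dye orientation did, and these cannot be told apart.

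No clone of the proteasome or the ubiquitin system passed the test for secretoneurin over control. In limma's test with Benjamini-Hochberg adjustment over the whole array, 0 of 98 clones were called higher and 0 lower, and the same held for 0% of the 8090 probes in either direction, and no adjusted p was smaller than 0.998. Before adjustment, at p under 0.05, 0 of the 98 clones were higher, beside 1.2% of all probes, and 2 clones (2.04%) were lower, beside 1.57% of all probes. Those were a SUMO-2 clone and a clone of proteasome subunit alpha type 2. Both were among the 41 clones well above background on at least 2 arrays in each group. Of the 2342 probes at that level, 76 were lower and 6 higher. The median log2 ratio of the 98 clones was 0.0017, with 50 above 0 (beside 50.5% of all probes) and 48 below (beside 49.5%), and that of all probes was 0.0014. The median 95% interval of a clone reached 0.21 to either side of its ratio. That interval is not adjusted for the 8090 probes, so a difference of this size would not be called. The SUMO-2 clone, for example, had a fitted ratio of -0.25 and an adjusted p of 0.998 in limma.

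The count of 0 did not hold when replicate 2 or replicate 4 was left out. Without replicate 2, 9 of 98 clones (9.18%) were called lower, beside 3.91% of all probes. Without replicate 4, 14 of 97 clones (14.4%) were called higher, beside 5.23% of all probes. In each case the array that remained in its dye orientation stood alone and was assumed to vary like the others. With the ratio of replicate 2 turned, 8 clones were called lower, beside 3.45% of all probes. With that of replicate 4 turned, 12 clones were called higher, beside 5.22% of all probes. The turned settings are not separate results, because the secretoneurin effect in each is by construction the dye effect in the other. In these 4 settings the opposite direction had 0 called clones, beside 0.477%, 0.225%, 0.0742% and 0.0742% of all probes. All clones called in these 4 settings belonged to a set of 17, described further on, that took opposite directions on the 2 arrays. That set was drawn on the difference between these same arrays, so the overlap follows in part from the choice.

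**Figure D1:**
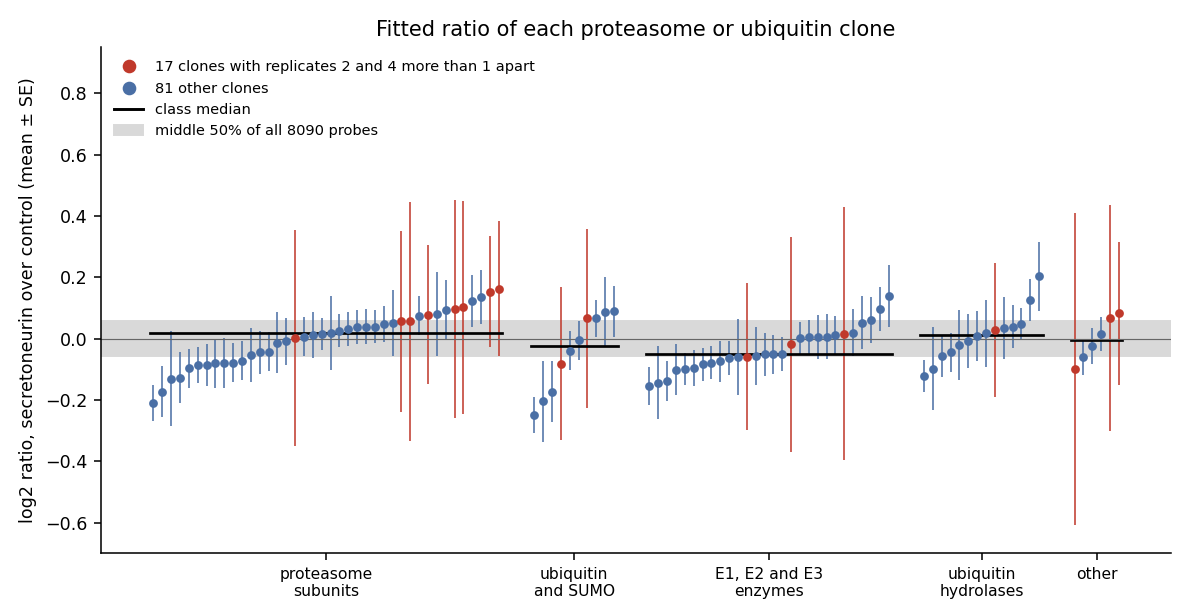
Fitted log2 ratio of secretoneurin over control (mean ± SE) for each of the 98 clones, ordered within 5 role classes; black bars are class medians and the grey band is the middle 50% of all 8090 probes. Ratios run between -0.25 and 0.20. The 17 clones in red, chosen because their replicates 2 and 4 differ by more than 1, have the long error bars, which follow from that choice. Clones that were not well above background in 1 or both groups are included.

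Many of these clones gave weak signal. Of the 98, 66 were well above background in both groups on at least 1 array, 22 in secretoneurin samples only, 2 in control samples only and 8 (8.16%) in neither, beside 14.5% of all probes. At the level used for naming clones, at least 2 arrays in each group, 41 clones (41.8%) qualified, beside 28.9% of all probes. Both channels were above it on all 4 arrays for 10 clones (10.2%), beside 10.4% of all probes. The median log2 ratio of the 41 clones was -0.0074, and that of all 2342 probes at that level was -0.024. The number of the 98 clones above background was 56, 24, 82 and 12 in the secretoneurin channel of replicates 1 to 4, against 23, 61, 25 and 49 in the control channel, so on each array it was higher in the Cy5 channel. For a clone that did not reach this level in a group, no fold is given.

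Proteasome clones had a median log2 ratio of 0.018 over 40 clones, 24 above 0 and 16 below, and 0 were called. The median of these clones was -0.027, 0.0070, 0.012 and -0.029 on replicates 1 to 4, so no array stood apart in this median. Single clones did differ between arrays. In 8 of the 40, described further on, replicate 2 was more than 1 above replicate 4. Within the 20S core, 4 of the 11 clones of alpha subunits lay above 0 and 7 below, and their median was -0.054. For the 10 clones of beta subunits, the ring with the cutting sites, 8 lay above 0 and 2 below, with a median of 0.054. The 17 clones of the 19S regulatory particle lay between them, with a median of 0.0055, 10 above 0 and 7 below. Well above background on at least 2 arrays in each group were 7 of the 11 alpha, 4 of the 10 beta and 4 of the 17 regulatory clones. Replicate 2 was more than 1 above replicate 4 in 2 of the alpha and 3 of the beta clones. The difference between the rings was not tested, and each median is smaller than the interval of a single clone.

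With all arrays as labelled, the proteasome clone of smallest p was 14g18, of proteasome subunit alpha type 2, a part of the outer ring of the core. Its intensity above local background was 298, 577, 228 and 606 scanner units in the secretoneurin samples of replicates 1 to 4, against 753, 365, 482 and 336 in the control samples. Before normalization, the median Cy3 intensity was above the median Cy5 intensity on every array. The normalized log2 ratios of the clone were -0.28, -0.24, -0.24 and -0.081. In the mean of its spots it was lower with secretoneurin on all 4 arrays, with replicate 4 nearest to 0. On replicate 2 its spots read -0.49 and 0.0034. The fitted ratio was -0.21 ± 0.059, with an unadjusted p of 0.022 and an adjusted p of 0.998 in limma. With replicate 2 or 4 turned it was -0.089 (adjusted p = 0.78 in limma) and -0.17 (adjusted p = 0.47 in limma), and other proteasome clones then passed the test. The other clone of the same name, 14m03, had log2 ratios of -0.19, -0.43, 0.11 and -0.19 on the 4 arrays and a fitted ratio of -0.17 ± 0.084. Its replicate 3 took the other direction.

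The further core and regulatory clones, named by the same rule, were smaller. Clone 21f11 of 26S non-ATPase subunit 8, a lid protein of the regulatory particle, had log2 ratios of -0.32, 0.096, -0.14 and -0.023. Clone 22p03 of 26S non-ATPase subunit 4, which holds ubiquitin chains, was below 0 on all 4 arrays, with log2 ratios of -0.021, -0.16, -0.13 and -0.035. Clone 14k23 of subunit alpha type 7 had log2 ratios of 0.090, -0.078, -0.11 and -0.24. Their fitted ratios were -0.097 ± 0.064, -0.087 ± 0.059 and -0.085 ± 0.068, and the 95% interval of each included 0. Of the regulators, a clone of proteasome activator complex subunit 2, part of the PA28 cap, had a fitted ratio of 0.078 ± 0.23. The clone of the proteasome inhibitor PI31 and that of subunit beta type 9, an immunoproteasome subunit in mammals, were not well above background in any control sample.

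Ubiquitin and SUMO clones had a median log2 ratio of -0.022 over 10 clones, 4 above 0 and 6 below. Of the 4 ubiquitin clones 1 was above 0 and 3 below, around a median of -0.090. The 6 SUMO clones lay 3 on each side of 0, around a median of 0.014. The medians of the 10 clones were -0.068, 0.048, -0.098 and -0.10 on replicates 1 to 4, above 0 only on replicate 2.

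With all arrays as labelled, the smallest p among the 98 clones belonged to SUMO-2 clone 26n03. SUMO-2 forms chains on its targets and is attached to many proteins under stress. The intensity of this clone was 605, 2021, 535 and 2394 scanner units in the secretoneurin samples, against 1714, 1443, 1273 and 1335 in the control samples. After normalization its log2 ratios were -0.41, -0.16, -0.42 and -0.012. In the mean of its spots it was lower with secretoneurin on all 4 arrays, by more where secretoneurin carried Cy5 than where it carried Cy3. Its 2 spots read -0.72 and -0.089 on replicate 1, and -0.59 and -0.24 on replicate 3. On replicate 2 they read -0.10 and -0.22. On replicate 4 they read -0.14 and 0.11, on either side of 0. The fitted ratio was -0.25 ± 0.058, with an unadjusted p of 0.011 and an adjusted p of 0.998 in limma, and the dye effect was -0.16. With the ratio of replicate 2 turned it came 21st by p (-0.17, adjusted p = 0.41 in limma), and with that of replicate 4 turned 16th (-0.24, adjusted p = 0.14 in limma). The smallest p then belonged to a clone of subunit beta type 7, 24h19 (-0.57, adjusted p = 0.0099 in limma), and to UFD1 clone 22k12 (0.64, adjusted p = 0.0027 in limma).

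The other SUMO-2 clones were mixed in direction. Clone 14j15 had log2 ratios of 0.18, 0.039, -0.0036 and 0.049, clone 14o23 had 0.18, -0.0087, 0.45 and -0.26, and clone 30l08 had -0.21, 0.82, -0.36 and -0.58. The first 2 had fitted ratios above 0, and 30l08, below 0 on 3 arrays, one of -0.081 ± 0.25. Clone 25p10 was not well above background in any control sample. The mean over the 5 SUMO-2 clones was -0.042, 0.23, -0.065 and -0.19 on the 4 arrays, or -0.018 over all. Fitted ratios of the clones of this name ran from -0.25 to 0.089. The single SUMO-3 clone was not well above background in any control sample.

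Ubiquitin clone 30k16 gave strong signal, at 1888, 7107, 3725 and 9147 scanner units in the secretoneurin samples, against 4646, 4622, 8066 and 7246 in the control samples. Its log2 ratios were -0.19, 0.23, -0.41 and -0.43, lower with secretoneurin on 3 arrays and higher on replicate 2. The fitted ratio was -0.20 ± 0.13. Clone 30g07, measured on 3 arrays because its spots on replicate 2 were marked to be ignored, had log2 ratios of -0.43, -0.15 and -0.058 and a fitted ratio of -0.17 ± 0.10. Clone 61i13 was at -0.0057 ± 0.063. The mean over the ubiquitin clones was -0.17, 0.35, -0.11 and -0.28 on replicates 1 to 4, again with replicate 2, where 30g07 has no value, on the other side of 0.

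The enzymes that activate, conjugate and ligate ubiquitin or a related modifier had a median log2 ratio of -0.051 over 28 clones. Of these, 11 were above 0 and 17 below. Their medians on replicates 1 to 4 were -0.11, 0.032, -0.018 and -0.066. The single E1 clone, of the enzyme at the head of the pathway, was at 0.0062 ± 0.074. Of the 19 E2 clones 7 were above 0 and 12 below (median -0.051), and of the 8 E3 clones 3 were above and 5 below (median -0.065).

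Clone 58m01 of TRAF7, an E3 ligase that also acts in stress kinase signalling in mammals, had the smallest p of this class. Its intensity was 442, 630, 260 and 640 scanner units in the secretoneurin samples, against 892, 448, 483 and 392.2 in the control samples. The log2 ratios were 0.049, -0.39, -0.056 and -0.22. They were lower with secretoneurin on 3 arrays, most on the 2 with secretoneurin in Cy3. The fitted ratio was -0.15 ± 0.062, with an unadjusted p of 0.066 and an adjusted p of 0.998 in limma.

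Of the conjugating enzymes, clone 24b06 of E2 D1, which works with many ligases, had log2 ratios of -0.40, -0.080, 0.18 and -0.28, and a fitted ratio of -0.14 ± 0.12. Clone 43b04 of ube2n, which builds chains used in signalling, had log2 ratios of -0.13, -0.089, -0.068 and 0.027, and a fitted ratio of -0.064 ± 0.056. Clone 28k24, named E2-17 kDa 10/12, had -0.10, 0.15, 0.18 and 0.011, and a fitted ratio of 0.061 ± 0.075. The 95% interval of each of these 3 included 0.

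The E3 ligase EDD1, clone 52p01, had ratios that followed the dye. Its log2 ratios were -0.38, 0.26, -0.55 and 0.47, below 0 on both arrays with secretoneurin in Cy5 and above 0 on both with secretoneurin in Cy3. The dye effect was -0.41, against a fitted secretoneurin ratio of -0.051 ± 0.069. Across all probes, 0% had a called dye effect in either dye, and no adjusted p was smaller than 0.716 in limma. Before adjustment, at p under 0.05, 3.33% of all probes were brighter in Cy3 and 3.34% in Cy5. Of the 98 clones, 4 (4.08%) were brighter in Cy3 at that level and 0 in Cy5. Besides EDD1 and SUMO-2 clone 26n03 these were clone 39a17 of FUBI and clone 53f11, named after a ubiquitin specific protease and below that level on every array. In the other classes the largest dye effects among the brighter clones were -0.29 for clone 28d06, a proteasome alpha subunit, and -0.20 for SUMO-2 clone 30l08, both with replicates 2 and 4 far apart.

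Hydrolases had a median log2 ratio of 0.013 over 14 clones, 8 above 0 and 6 below. Only 3 of the 14 were well above background on at least 2 arrays in each group. Clone 30a05 of ubiquitin carboxyl-terminal hydrolase 2 had log2 ratios of -0.065, -0.44, -0.16 and 0.28, with replicates 2 and 4 apart, and a fitted ratio of -0.098 ± 0.14. On replicate 2 only its spot 2 was kept, and on replicate 4 only its spot 1, so these arrays compare different spots. Clone 52b06 of FAF-X, a large hydrolase that guards selected proteins from the proteasome, had -0.40, 0.15, 0.014 and 0.20, and a fitted ratio of -0.0074 ± 0.089. The dye effect of that clone, -0.19, exceeded its secretoneurin ratio.

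The hydrolase uch-L1, which is abundant in neurons and neuroendocrine cells, had 7 clones. Clone 84a01 was below 0 on all 4 arrays, with log2 ratios of -0.086, -0.13, -0.090 and -0.19 and a fitted ratio of -0.12 ± 0.052. Its unadjusted p was 0.076 and its adjusted p 0.998 in limma. Its intensity was 164, 404, 171 and 411 scanner units in the secretoneurin samples, against 375, 211, 340 and 247 in the control samples. Clones 42i06, 42o10 and 43g06 had fitted ratios of -0.058 ± 0.066, -0.021 ± 0.11 and 0.039 ± 0.069. Clone 30j01, the one of this name above background in both groups on all 4 arrays, had log2 ratios of 0.014, 0.68, -0.040 and -0.54. Clone 42j24 was not well above background in any control sample, nor clone 60p13 in any secretoneurin sample. The mean over the 7 clones was 0.037, 0.044, 0.045 and -0.077 on replicates 1 to 4, or 0.012 over all.

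The 6 other clones had a median log2 ratio of -0.0035, 3 above 0 and 3 below. Clone 39a17 of FUBI, a ubiquitin-like protein made as a fusion with a ribosomal protein in mammals, had log2 ratios of -0.21, 0.21, -0.25 and 0.32. It followed the dye like EDD1, and its fitted ratio was 0.016 ± 0.056. The 2 clones of UFD1, which helps to pull ubiquitin-marked proteins out of membranes and complexes, belong to the pattern described next.

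A set of 17 clones had a high ratio on replicate 2 and a low one on replicate 4. The set was drawn, after the values were seen, as the clones with a replicate 2 ratio more than 1 above that of replicate 4, so what follows is a description with no test. It held 17 of 97 clones measured on all arrays (17.5%), beside 6.55% of all probes, and the opposite pattern was found in 0 clones, beside 0.189% of all probes. The last clone inside differed by 1.01 and the first outside by 0.73. Log2 ratios of the 17 ran from 0.47 to 1.25 with a median of 0.83 on replicate 2, and from -1.77 to -0.43 with a median of -0.87 on replicate 4. On replicates 1 and 3 their medians were 0.12 and 0.10. The other clones had medians of -0.018 on replicate 2 and -0.012 on replicate 4.

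**Figure D2:**
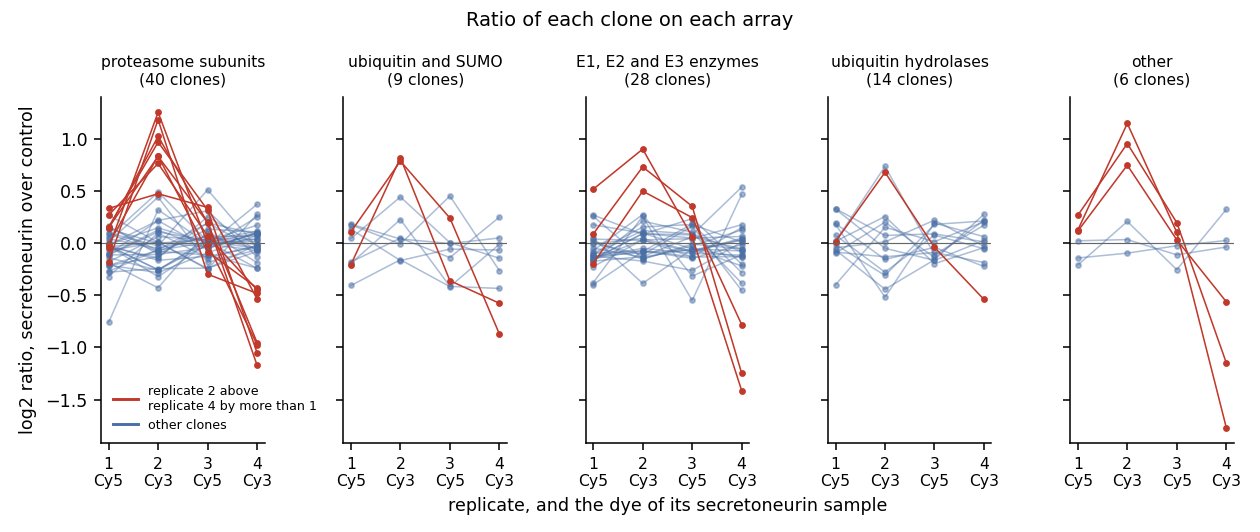
Log2 ratio of secretoneurin over control on each of the 4 arrays for the 97 clones measured on all of them, by role class; a line joins the values of 1 clone and does not stand for an order of the replicates. The 17 clones in red sit between 0.47 and 1.25 on replicate 2 and between -1.77 and -0.43 on replicate 4, and near the other clones on replicates 1 and 3.

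The largest swing was in UFD1 clone 23e23. It had 1002, 4094, 996 and 1126 scanner units above background in the secretoneurin samples, against 2017, 1245, 1590 and 2155 in the control samples. Its log2 ratios were 0.12, 1.15, 0.10 and -1.77, so that replicates 2 and 4, with the same dye orientation, took opposite directions. The fitted ratio was -0.098 ± 0.51. The other UFD1 clone, 22k12, had log2 ratios of 0.27, 0.95, 0.20 and -1.15 and a fitted ratio of 0.068 ± 0.37.

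The set, picked by this shape, held clones of several roles. Core subunits in the set were clones of alpha type 7 (0.97 on replicate 2 and -1.05 on replicate 4), beta type 5 (1.02 and -0.95), beta type 7 (1.25 and -0.97), beta type 3 (0.47 and -0.53) and an alpha type with no number (1.18 and -0.48). Beta type 5 carries the chymotrypsin-like site of the core, and beta type 7 the trypsin-like one. From the 19S particle there were clones of non-ATPase subunits 4 (0.83 and -1.17) and 8 (0.76 and -0.45), and from the PA28 cap that of activator subunit 2 (0.84 and -0.43). The modifiers were ubiquitin clone 59l18 (0.79 and -0.87) and SUMO-2 clone 30l08 (0.82 and -0.58). The E2 enzymes were E2 A (0.90 and -1.41), which ubiquitinates histones in mammals, E2 G2 (0.73 and -1.25), which serves degradation at the endoplasmic reticulum, and E2 I (0.50 and -0.78), which conjugates SUMO. FUBI clone 40g21 (0.75 and -0.56) and uch-L1 clone 30j01 (0.68 and -0.54) completed the set with the UFD1 clones. By class it held 8 of 40 proteasome clones (20%), 2 of 10 modifiers (20%) and 3 of 28 enzymes (10.7%). It also held 1 of 14 hydrolases (7.14%) and 3 of 6 others (50%). The share over all 8090 probes was 6.45%, so that of the hydrolases was near it. Of the 8 E3 clones 0 were in the set.

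**Figure D3:**
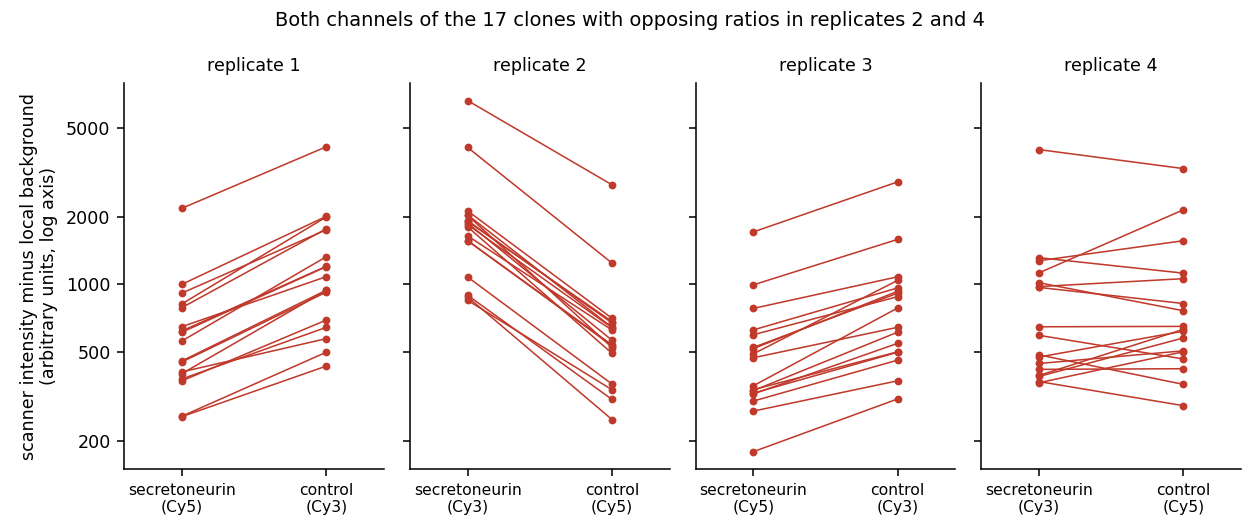
Scanner intensity minus local background (log axis) in the secretoneurin and the control channel of each array for the 17 clones; a line joins the channels of 1 clone. On replicate 2 secretoneurin exceeds control in all 17, with medians of 1849 and 563, and on replicate 4 in 7 of the 17, with medians of 592 and 630.

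Both spots of each clone carried the pattern. In 34 of 34 spots the ratio was higher on replicate 2 than on replicate 4, and in 31 by more than 1. The set was drawn on the mean of these same spots, so their agreement follows in part from the choice. The spots of UFD1 clone 23e23, for example, had log2 ratios of 1.14 and 1.15 on replicate 2 and of -1.93 and -1.60 on replicate 4. In the scanner intensities before normalization, the median of the 17 clones was 560, 1849, 470 and 592 units in the secretoneurin samples of replicates 1 to 4, against 1084, 563, 785 and 630 in the control samples. For the 81 other clones these medians were 208, 408, 146 and 356 units in the secretoneurin samples, against 402, 187, 254 and 171 in the control samples. So on replicate 4 secretoneurin exceeded control in 81 of the 81 other clones, in which Cy3 was the brighter dye, and in 7 of the 17. On replicate 2 it exceeded control in 17 of the 17 and in 80 of the other 81, of which 1 had no value.

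The authors' deposited table of log2 ratios, of the same arrays and turned to secretoneurin over control, showed the same directions. In the authors' deposited table the medians of the 17 clones were 0.12, 0.54, 0.079 and -0.59 on replicates 1 to 4, and replicate 2 was above replicate 4 in 17 of them, in 11 by more than 1.

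All 17 clones gave measurable signal. They were well above background on at least 2 arrays in each group, so they made up 17 of 41 such clones (41.5%), beside 20.5% of all probes at that level. Their place in the clone collection also differed. Clone names open with a number, and 16 of 68 clones with a number up to 40 (23.5%) were in the set, beside 13.4% of all probes with such numbers. Of the 30 clones with higher numbers 1 was (3.33%), beside 1.21% of all probes. The part of brightness and of clone number in the pattern was not tested.

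The fitted ratios of the 17 clones lay between -0.098 and 0.16, because replicates 2 and 4 cancelled. Their median SE was 0.29, against 0.068 for the other clones. The fit takes its error from arrays of the same dye orientation. Clones chosen for replicates 2 and 4 far apart therefore have large SEs by construction. The spots of 1 clone on 1 array differed by a median of 0.30 on replicate 2 and 0.32 on replicate 4 in the 17 clones, against 0.24 and 0.22 in the other clones. Without replicate 4 the set gave all 14 calls, such as 0.60 for subunit alpha type 7 (adjusted p = 0.0080 in limma) and 0.63 for UFD1 clone 23e23 (adjusted p = 0.0071 in limma). Without replicate 2 it gave all 9 calls, and the same clones then stood at -0.41 (adjusted p = 0.041) and -0.83 (adjusted p = 0.0018), in limma's test. The set was drawn on replicates 2 and 4, so that it holds all these calls follows in part from the choice. These data do not settle which direction, if either, holds for these clones.

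Clones of 1 gene name disagreed on this pattern. The 17 clones came from 16 gene names, 12 of which had more than 1 clone, and in 11 of these 12 at least 1 other clone of the name stayed outside, 27 clones in all. Non-ATPase subunit 4 had 1 clone with replicates 2 and 4 apart by 2.003 among 4, and the lowest difference of its clones was -0.20. Subunit alpha type 7 had 1 of 3 clones in the set, with differences from -0.065 to 2.02. Likewise 1 of 4 ubiquitin clones had it, with differences from -0.20 to 1.66, and 1 of 5 SUMO-2 clones, from -0.15 to 1.39. For uch-L1 it was 1 of 7, from -0.58 to 1.22. All clones of the set were well above background on at least 2 arrays in each group, but some others of these names were not. That level was reached by 2 of 4 clones of non-ATPase subunit 4 and 2 of 3 of alpha type 7. It was reached by 3 of 4 ubiquitin, 3 of 5 SUMO-2 and 1 of 7 uch-L1 clones. The offset of the background correction shrinks the ratios of dim clones. Clones of 1 name may also stand for different gene copies, which the array names do not separate. The part of signal and of gene copies was not tested.

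**Figure D4:**
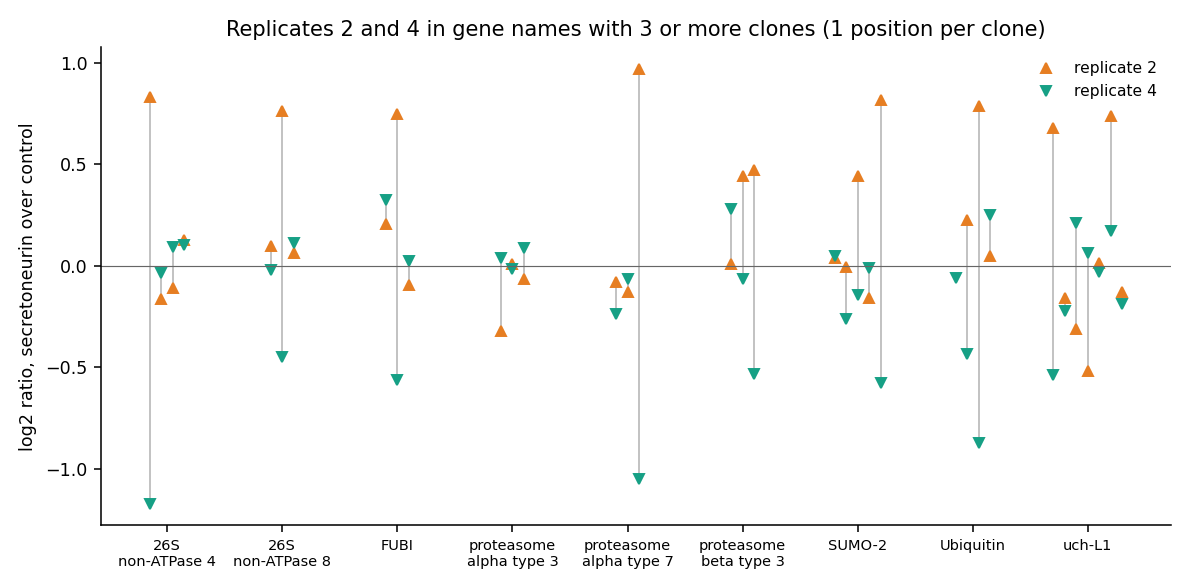
Log2 ratio of secretoneurin over control on replicates 2 (upward triangles) and 4 (downward triangles) for every clone of the 9 gene names with 3 or more clones, 1 position per clone; ubiquitin clone 30g07 has no value on replicate 2. In 8 of the 9 names a single clone has replicates 2 and 4 more than 1 apart, while the others of its name lie closer together. Some of these others were not well above background on at least 2 arrays in each group.

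Averaged over clones, the 9 gene names with 3 or more clones stayed near 0. The means were -0.028 for non-ATPase subunit 4 and 0.024 for non-ATPase subunit 8. They were -0.055 for alpha type 3, -0.014 for alpha type 7 and 0.065 for beta type 3. FUBI had a mean of 0.013, and ubiquitin one of -0.079. On single arrays these means ranged more widely, such as 0.25 on replicate 2 and -0.45 on replicate 4 for alpha type 7. Alpha type 3 was the single one of the 9 names with no clone in the set of 17, and its means were -0.11, -0.13, -0.019 and 0.037 on the 4 arrays.

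The count of clones with 1 direction on all 4 arrays depended on the orientation of replicates 2 and 4. Ratios were below 0 on every array in 7 of 97 clones (7.22%), beside 5.54% of all probes, and above 0 on every array in 1 clone (1.03%), beside 5.17%. With the ratio of replicate 2 turned these counts were 10 below 0 (10.3%, beside 6.68%) and 3 above (3.09%, beside 6.41%). With that of replicate 4 turned they were 9 below 0 (9.28%, beside 7.49%) and 14 above (14.4%, beside 8.6%). With the arrays as labelled, those below 0 included SUMO-2 clone 26n03, alpha type 2 clone 14g18, non-ATPase subunit 4 clone 22p03, uch-L1 clone 84a01 and a clone of E2 D2, 13g21. The other 2, of the ligases MYLIP and UBR1, were not well above background in control samples. The clone above 0 on every array, of ubiquitin specific protease 1, did not reach background plus 2 SDs in a single channel.

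Genes that work beside the system were read from lists of names, and the list of linked genes kept some loose matches. Of 62 clones of linked genes such as F-box proteins, RING finger proteins and the ATPase VCP, 0 were called, and at an unadjusted p under 0.05, 5 were higher (8.06%, beside 1.2% of all probes) and 2 lower (3.23%, beside 1.57%). Their median log2 ratio was 0.021. Of the 5 higher clones, those of F-box only protein 28, the ATPase VCP, a RING finger protein and a BTB protein stayed below background plus 2 SDs in every control sample. The other, clone 20c21 of Kelch domain containing protein 1, exceeded it on 1 array in each group and had log2 ratios of 0.20, 0.16, 0.30 and 0.083, with a fitted ratio of 0.19 ± 0.056. Rabring 7, a RING finger protein, clone 23j15, had log2 ratios of -0.35, -0.20, -0.39 and -0.12 and a fitted ratio of -0.27 ± 0.054. A clone of Nedd4 family-interacting protein 2, an adaptor of HECT ligases, 19k06, had log2 ratios of -0.24, -0.086, -0.23 and -0.35 and a fitted ratio of -0.23 ± 0.069. The last 2 clones were lower with secretoneurin on all 4 arrays, and the adjusted p of both was 0.998 in limma. Other clones of these names did not reach an unadjusted p under 0.05. They were 19m06 of Rabring 7, and 17j16, 18i15, 19j16, 24e17 and 27f03 of the adaptor.

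Of 69 chaperone clones, which hand unfolded proteins on to folding or to the proteasome, 0 were called, and their median was 0.0032. At an unadjusted p under 0.05, 0 were higher (beside 1.2% of all probes) and 1 was lower (1.45%, beside 1.57%). That was clone 42j13 of hsp90b, with log2 ratios of -0.37, -0.13, -0.15 and -0.092 and a fitted ratio of -0.18 ± 0.064. A DnaJ A clone, 13a15, had log2 ratios of -0.32, -0.061, -0.25 and 0.049 and a fitted ratio of -0.14 ± 0.056. The 7 clones of lysosomal proteases, the other main route of protein breakdown, had a median of -0.017 and 0 calls at either level. Cathepsin L clone 23g24 had log2 ratios of 0.27, 0.78, 0.12 and -0.85, apart on replicates 2 and 4 like the 17 clones above. The 4 clones of calpains and caspases had a median of 0.0024 and 0 calls at either level. Calpain small subunit 1, clone 61f15, had a fitted ratio of -0.11 ± 0.089.

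Markers of other cells were read in the same way, from lists that kept some wrong matches. Among 13 clones of red blood cell, 36 of leukocyte, 81 of muscle and 58 of neural and glial genes, 0 were called, and their medians were 0.044, -0.034, -0.0070 and 0.017. At an unadjusted p under 0.05, the leukocyte list had 0 clones higher and 5 lower (13.9%, beside 1.57% of all probes). These 5 were 2 clones of MHC class I antigen, 1 of an invariant chain like protein, 1 of an MHC class II gamma chain and 1 of beta-2-microglobulin, with fitted log2 ratios from -0.34 to -0.17. All 5 were well above background on at least 2 arrays in each group, as were 22 of the 36 clones. Of the 2342 probes at that level, 76 were lower and 6 higher. The neural list had 3 clones higher (5.17%, beside 1.2% of all probes) and 0 lower, all 3 of the brain glycoprotein EPD. In every control sample 2 of them stayed below background plus 2 SDs. EPD clones are numerous in this list, and its other EPD clones did not reach an unadjusted p under 0.05. The muscle list had 1 each way (1.23%, beside 1.2% of all probes higher and 1.57% lower), and the red blood cell list 0. Of the 13 clones of pituitary hormones and granins, 2 were above 0 and 11 below (beside 49.5% of all probes), around a median of -0.049. Of these 13, 12 were well above background on at least 2 arrays in each group. At that level 1404 of the 2342 probes were below 0, around a median of -0.024. In this list 0 were called, and 1 was lower at an unadjusted p under 0.05 (7.69%, beside 1.57% of all probes). That was clone 17o09 of secretogranin II, with a fitted ratio of -0.25 ± 0.061. The other secretogranin II clones of the list did not reach that level. The part of other cells in the ratios above was not tested.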

How the data were processed

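The clones and gene lists were chosen with earlier results of these data known. Per the file headers, the deposited scanner files give, for both dyes, linear spot intensities and local backgrounds that were not subtracted. The authors' deposited table holds log2 ratios. They correlated with Cy5 over Cy3 of the scanner intensities at 0.61 to 0.72, so its direction was taken as Cy5 over Cy3, and its column medians were 0.0037, 0.031, 0.0037 and -0.046. How they were normalized is unknown.

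Intensities were corrected with normexp (offset 50) in limma 3.58.1 (R 4.3.3), and loess with a span of 0.3 and 4 iterations was run over each array. Control spots (1126 per array) and spots with the scanner software's ignore mark, 16 of them of the 98 clones, were given no weight. Each clone's spots were averaged, and the 8090 probes with values on at least 3 arrays were fitted with lmFit and eBayes (secretoneurin and dye effects, 2 residual degrees of freedom, two-sided). P-values were adjusted over all of them, with a threshold of 0.05. The fit was tested on simulated data.

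Clones named with values were, per role, up to 5 of smallest p measured on 4 arrays and well above background on at least 2 arrays per group, and the one of largest dye effect. Further named were gene names with 3 or more clones, TRAF7, uch-L1, SUMO-2, and up to 2 clones per pathway list. Other clones that the text names were chosen after their values were seen. Some wrong matches to the gene lists were dropped from the clone names alone. Others stayed, such as sphingomyelin phosphodiesterase 2 (neural list), the proteins SMUBP-2 and transcription factor E2-alpha (leukocyte list) and nonmuscle myosin-9 (muscle list). In the list of linked genes, loose matches such as prefoldin subunit 3 and the transcription regulator BACH2 stayed. The counts and medians of those lists include them. Alternatives were other background corrections and normalizations, brighter probes, no dye term, the authors' table and leaving out each replicate.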

Additional observations from a re-analysis of the deposited data

Results flagged for a closer look

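Of 59 named clones, gene means and class medians examined over the 4 arrays, 3 had an array far from the other 3 by Dixon's criterion. Chance flags about 1 in 20 such groups. The mean over the FUBI clones was 0.29 on replicate 2, against -0.083 to -0.071 on the other arrays. The mean over the uch-L1 clones was -0.077 on replicate 4, against 0.037 to 0.045 on the others. The median of the 20S beta subunit clones was 0.078 on replicate 2, against -0.0023 to 0.0057 on the others. In each case the array apart was replicate 2 or replicate 4, and the cause was not tested.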

How the results depend on the processing

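The call that 0 of the 98 clones passed held under other background corrections, print-tip loess, median centring, no dye term and the authors' table. With brighter probes alone, which held 10 of the 98 clones, 0 passed as well. The call did not hold without replicate 2 or 4. Leaving out 1 replicate at a time gave between 0 and 14 called clones, 0 to 419 probes called higher, 0 to 311 called lower, 0 to 435 with a dye effect, and 0 to 11 clones with a dye effect. Every count above 0 came from leaving out replicate 2 or 4. With replicate 2 turned, 6 probes were called higher and 279 lower, 8 clones passed, and 428 probes and 12 clones had a dye effect. With replicate 4 turned, 422 were called higher and 6 lower, 12 clones passed, and 285 probes and 8 clones had a dye effect. By construction the secretoneurin and dye effects change places between the turned settings, so their counts repeat each other. The cause of the dependence on replicates 2 and 4 was not tested.

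Leaving out 1 replicate moved the median of all clones between -0.036 and 0.0054, that of proteasome clones between -0.017 and 0.033, and that of modifiers between -0.12 and 0.064. With replicate 2 turned these medians were -0.032, -0.014 and -0.15, and with replicate 4 turned the proteasome median was -0.0062. With plain background subtraction the proteasome median was 0.044 and the hydrolase median -0.029. When dimmer probes were left out of the fit, 10 of the 98 clones remained, so class medians rested on very few clones. The proteasome value was then 0.097, that of the single clone 30g13 of alpha type 7 (0.097 ± 0.36), whose replicates 2 and 4 took opposite directions. The modifier median was -0.20, the value of ubiquitin clone 30k16. The spots of a clone stayed as close as in the main setting under the alternatives run.

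Several clones, none of them called in the main setting, changed direction. Leaving out 1 replicate, the log2 ratio ran from -0.43 to 0.27 for 30l08, from -0.35 to 0.48 for 59l18, from -0.24 to 0.41 for 40g21, from -0.83 to 0.63 for 23e23, from -0.46 to 0.59 for 22k12, from -0.28 to 0.33 for 30j01 and from -0.33 to 0.49 for 23g24. It ran from -0.29 to 0.0016 for 24b06, from -0.0092 to 0.13 for 28k24, from -0.10 to 0.00098 for 52p01, from -0.28 to 0.082 for 30a05, from -0.11 to 0.096 for 52b06, from -0.013 to 0.045 for 39a17, from -0.17 to 0.12 for 42o10 and from -0.027 to 0.11 for 43g06. The dye effect ran from -0.71 to 0.12 for 28d06 and from -0.55 to 0.15 for 30l08.

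With replicate 2 turned, the log2 ratio was 0.042 for 14m03, -0.33 for 59l18, 0.040 for 58m01, -0.017 for 28k24, 0.12 for 30a05, -0.31 for 30j01, -0.29 for 40g21, -0.088 for 39a17, -0.41 for 22k12, 0.020 for 42i06, 0.24 for 42o10 and -0.31 for 23g24. The dye effects were then 0.30 for 28d06 and 0.21 for 30l08. With replicate 4 turned, it was 0.035 for 14k23, 0.013 for 30k16, 0.21 for 30l08, -0.15 for 39a17, 0.79 for 23e23 and 0.054 for 42i06. Plain subtraction gave -0.017 for 30j01, -0.023 for 39a17 and -0.019 for 22k12. No background correction gave -0.018 for 59l18, -0.0071 for 22k12 and 0.052 for 42o10. Median centring gave -0.026 for 59l18, -0.031 for 30j01, -0.038 for 40g21, -0.085 for 39a17 and -0.034 for 23g24. The authors' deposited table gave -0.016 for 39a17 and -0.021 for 22k12. The count of clones with replicate 2 more than 1 above replicate 4 was 12 to 17 under the other corrections, normalizations and the authors' table.

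Signal limits these data, since 32 of the 98 clones were not well above background in at least 1 group.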
